A study of Canis lupus familiaris with 3 samples.

Results

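The genes described here act in mitosis, at the spindle and at the kinetochore. They are 44 genes chosen by name, and the platform annotation gave 34 of them at least 1 spot that carried the symbol of that gene alone. All of these 34 had a value on all 3 arrays, out of 5508 named genes with such a value. The other 10 are CCNB1, BUB3, INCENP, TPX2, KIF4A, KIF14, KIF22, CENPC, SMC4 and NCAPH, and they are not analysed here. The RNA came from MDCK cells, an epithelial line of dog kidney. Transfectants carrying E47, a helix-loop-helix protein that binds DNA and is a product of TCF3, were compared with MDCK-CMV control cells, and both were grown in the same medium with fetal bovine serum. The series title names E47 as a repressor of transcription and ties it to E-cadherin and the epithelial to mesenchymal transition. On each array, printed with human cDNA clones, labelled RNA from E47 cells competed with labelled RNA from the control cells. Extraction 1 was used on 1 array, with E47 in Cy5, and extraction 2 as a dye swap, with E47 in Cy3 on 1 array and in Cy5 on the other. Whether the transfectants were 1 clone or a pool, and whether the 2 extractions came from separate cultures, was not stated in the sources used here. The p-values therefore rest on the spread between extractions, which may be technical, moderated by a spread pooled over all features.

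As background, a cell enters mitosis when CDK1, bound to a cyclin, is activated by CDC25 phosphatases. Kinesin motors and microtubule-binding proteins then build the spindle, and kinetochores assembled on the centromeres attach chromosomes to it. The spindle checkpoint holds back the anaphase-promoting complex until every chromosome is attached, after which cyclins and securin are degraded and sister chromatids part. Transcripts of many of these genes peak in G2 and M phase, so they are often read as a group in proliferating epithelial cells.

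All values are log2 ratios of E47 over control as deposited by the authors. The direction is likely and not stated: the labels put the E47 cells in channel 1 and the control in channel 2, and the title ties E47 to repression of E-cadherin, whose gene CDH1 was at −3.59. If the values ran the other way, every higher would become lower. Base 2 is assumed for the logarithm. TCF3 itself was at −0.29 with a limma adjusted p of 0.118, and the sources used here do not say whether its clones overlap the introduced cDNA. The spots with a value numbered 24771 to 25537 per array, and with 3 arrays the precision is limited throughout. A ratio says nothing of the level of a transcript, so no gene is ranked by abundance. A human clone may pick up several similar dog transcripts, so related genes such as CKS1B and CKS2 are not separated for certain. Among marker genes of cell types, all 8 measured epithelial genes fell and 4 of 6 measured mesenchymal genes rose in the limma test, where 3.85% of all named genes were lower and 5.34% higher. Without the Cy5 array of extraction 2, 4 epithelial and 3 mesenchymal genes kept their calls, against 0.635% lower and 1.34% higher. Of 2 measured leukocyte markers PTPRC was at 1.03 and passed, and CD14 was at −0.04; the part of any other cell type in the results was not tested.

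Most of the measured mitosis genes had ratios above 0, and 12 rose in E47 cells. Of the 34 measured, these 12 rose, none fell and 22 did not pass the test at an adjusted p under 0.05, which was run with limma over all 14008 features with 2 extractions. The background was 5.34% of named genes higher and 3.85% lower. The genes were chosen with earlier results of these data known, so comparisons with all named genes are descriptions and no test of the list. At an unadjusted p under 0.05, 21 of the 34 were higher and none lower, against 958 higher and 1005 lower among all 5508 named genes. The 12 genes that rose were STMN1, CDK1, BUB1B, KIF11, PRC1, MAD2L1, BUB1, CCNA2, NEK2, HMMR, AURKA and CENPF, with ratios from 1.88 down to 0.68, or 3.68-fold to 1.60-fold. Their adjusted p-values ran from 0.0194 to 0.0399. The median over the 34 genes was 0.44, beside −0.02 over all named genes, and the array medians were 0.39, 0.52 and 0.39 in the order extraction 1, extraction 2 with E47 in Cy3 and extraction 2 with E47 in Cy5. On every array 27 of the 34 were above 0, where 30.6% of all named genes were, and 3 were below 0 on every array, where 32.8% of all genes were. By mean ratio 16 of the 34 stood among the highest 10% of named genes and 4 in the lower part of the ranking, below 50%. Because the arrays read bulk RNA, more cells in a phase of the cycle and more RNA per cell cannot be told apart. The count of calls changed with the array left out. Without the Cy3 array of extraction 2 all 12 calls were kept. With its Cy5 array left out, extraction and dye change together, so a dye difference enters the spread between extractions. Without the Cy5 array of extraction 2, STMN1, CDK1, BUB1B and PRC1 kept their calls, so 4 genes rose against a background of 1.34%, and the other 8 had adjusted p-values from 0.0509 to 0.0921. The mean ratios of those 8 were no lower without that array, at 0.68 to 1.18, than with it, at 0.68 to 1.17. In the other settings tested at an adjusted p under 0.05, the count ran from 11, against 3.96% of named genes, when incomplete spots were kept, to 17, against 11.3%, when named genes were tested alone. At an adjusted p under 0.10 it was 18, against 11.9%, and under 0.01 it was 0, with no feature past that threshold. STMN1, CDK1, BUB1B and PRC1 were also the ones at least 2-fold higher on all 3 arrays as means over spots, where 1.36% of all named genes were. For BUB1B this did not hold in each clone, since 1 of its 2 clones was at 0.53 and 0.95 on the arrays of extraction 2.

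**Figure D1:**
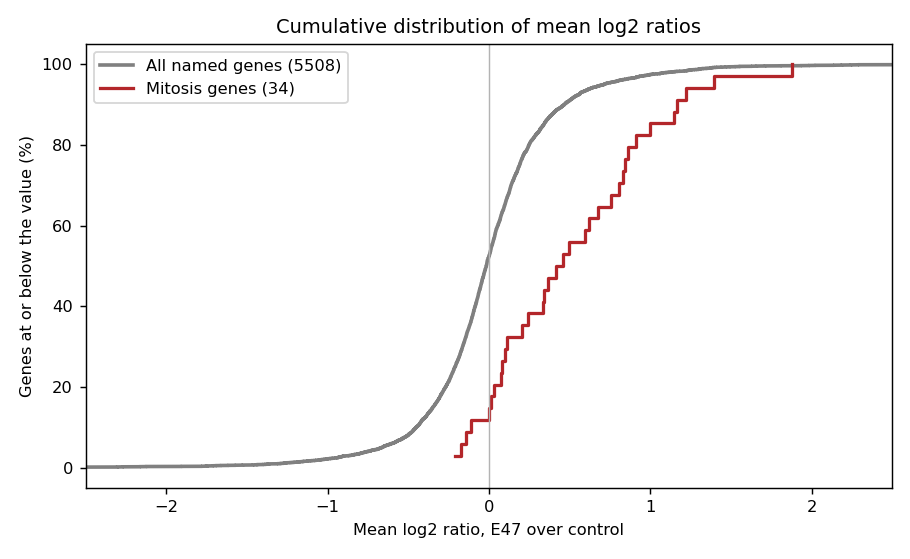
Cumulative share of genes (y axis, percent) at or below a mean log2 ratio of E47 over control (x axis), for all 5508 named genes in grey and the 34 measured mitosis genes in red. The x axis ends at ±2.5, beyond which a few of all genes lie. The red curve lies to the right of the grey one, with a median of 0.44 against −0.02. The mitosis genes were chosen with earlier results of these data known.

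**Figure D2:**
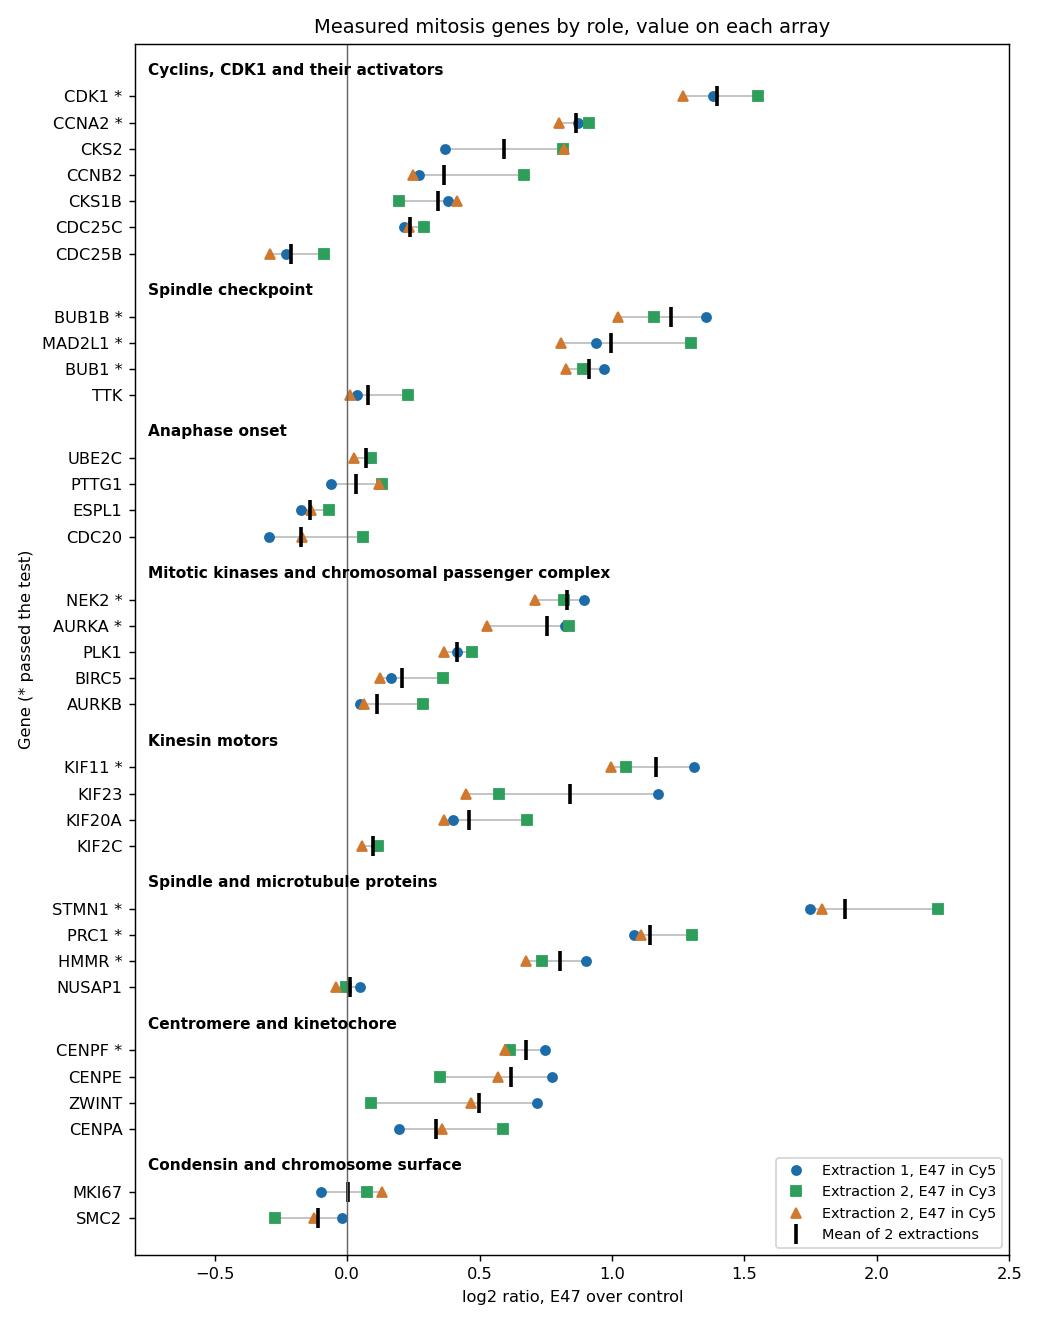
Log2 ratio of E47 over control (x axis) of each measured mitosis gene on each of the 3 arrays, with genes grouped by role; a black tick is the mean of the 2 extractions and a grey line spans the arrays. Genes marked with an asterisk passed the limma test, and they lie between 0.68 and 1.88, while the anaphase genes and the genes of condensin and the chromosome surface lie near 0.

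Among cyclins, CDK1 and their activators, the kinase and its S to G2 cyclin rose and the rest did not pass. CDK1, the kinase that drives entry into mitosis, gave 1.38, 1.55 and 1.27 on the arrays, in the order used above. All 3 values were close together, and the mean was 1.40 ± 0.08 (moderated SE, n = 2 extractions), with an adjusted p of 0.0194. This is a 2.63-fold difference and the 46th highest ratio among all named genes. CCNA2, the A-type cyclin that binds CDK2 and CDK1, gave 0.87, 0.91 and 0.80, with a mean of 0.86 ± 0.08 (n = 2) and an adjusted p of 0.0251. With the Cy5 array of extraction 2 left out, its adjusted p was 0.0584. CCNB2, a B-type cyclin and mitotic partner of CDK1, was at 0.27, 0.67 and 0.25, so its Cy3 array stood above the other arrays; its mean of 0.36 did not pass, with an adjusted p of 0.106. CKS1B and CKS2, small paralogous proteins that bind cyclin-dependent kinases, had means of 0.34 and 0.59, with adjusted p-values of 0.0994 and 0.0940. For CKS2 extraction 1 was at 0.37 and both arrays of extraction 2 were at 0.82. The phosphatase genes differed in sign: CDC25C was at 0.22, 0.29 and 0.23, and CDC25B at −0.23, −0.09 and −0.29. Neither phosphatase gene passed, with adjusted p-values of 0.156 and 0.184, and CDC25B had the lowest mean of all 34 genes, −0.21.

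The spindle checkpoint had the largest share of genes that rose, 3 of 4, together with the spindle proteins below. BUB1B, which encodes BUBR1, a subunit of the mitotic checkpoint complex, gave 1.35, 1.16 and 1.02. Its mean was 1.22 ± 0.11 (moderated SE, n = 2), a 2.33-fold difference with an adjusted p of 0.0241. MAD2L1, whose product binds and restrains CDC20, gave 0.94, 1.30 and 0.81 from a single spot, with a mean of 1.00 ± 0.09 (n = 2) and an adjusted p of 0.0241. The kinase gene BUB1 gave 0.97, 0.89 and 0.83, with a mean of 0.91 ± 0.09 (n = 2) and an adjusted p of 0.0251. As means over spots these 3 genes were above 0.80 on every array, and the lowest array value was the Cy5 array of extraction 2 in each. Without that array MAD2L1 and BUB1 had adjusted p-values of 0.0585 and 0.0572. TTK, the kinase MPS1 that starts checkpoint signalling, was at 0.04, 0.23 and 0.01 and did not pass, with a mean of 0.08 and an adjusted p of 0.546.

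None of the 4 genes of anaphase onset passed the limma test, none had an unadjusted p under 0.05, and all lay near 0. CDC20, the activator of the anaphase-promoting complex and the target of the checkpoint, gave −0.30, 0.06 and −0.17, so the sign differed between the arrays of the dye swap, and its mean was −0.18. UBE2C, the ubiquitin-conjugating enzyme of that complex, was at 0.09, 0.09 and 0.02. PTTG1, securin, was at −0.06, 0.13 and 0.12, and ESPL1, the separase that securin holds inactive, at −0.18, −0.07 and −0.14. Their adjusted p-values, CDC20 included, ran from 0.306 for CDC20 to 0.823 for PTTG1. The median over the 4 genes was −0.05. No test compared this group with the checkpoint group.

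Of 5 measured genes of mitotic kinases and the chromosomal passenger complex, 2 rose and all 5 were above 0 on every array. NEK2, a centrosomal kinase that acts in centrosome separation, gave 0.89, 0.82 and 0.71, with a mean of 0.83 ± 0.09 (moderated SE, n = 2) and an adjusted p of 0.0292. AURKA, the Aurora kinase of centrosomes and spindle poles, gave 0.82, 0.84 and 0.53, with a mean of 0.75 ± 0.09 (n = 2) and an adjusted p of 0.0339. When the Cy5 array of extraction 2 was left out the adjusted p was 0.0616 for NEK2 and 0.0638 for AURKA. PLK1, the Polo-like kinase, was at 0.41, 0.47 and 0.36, a narrow range with a mean of 0.42 that did not pass, at an adjusted p of 0.0723. The passenger complex genes were lower: AURKB, its kinase, was at 0.05, 0.29 and 0.06, and BIRC5, its subunit survivin, at 0.17, 0.36 and 0.13. Their adjusted p-values were 0.421 and 0.193. In both, the Cy3 array stood above the other arrays.

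Of 4 measured kinesin genes 1 rose, and all 4 were above 0 on every array as means over spots, although the KIF20A mean joins 2 clones of opposite sign, described with the clones below. KIF11, the motor EG5 that pushes spindle poles apart, gave 1.31, 1.05 and 0.99, with a mean of 1.17 ± 0.11 (moderated SE, n = 2), a 2.25-fold difference and an adjusted p of 0.0251. Leaving out the Cy5 array of extraction 2 raised this to 0.0509. KIF23, a motor of the central spindle needed for cytokinesis, gave 1.17, 0.57 and 0.45. Its mean of 0.84 was as high as that of genes that passed, but the extractions lay apart by more than for any other of the 34 genes, with an SD of 0.47, and the adjusted p was 0.0866. KIF20A, another cytokinesis motor, was at 0.40, 0.68 and 0.37 and its mean of 0.46 did not pass, at an adjusted p of 0.0695. KIF2C, a kinesin that depolymerises microtubules at centromeres, was at 0.11, 0.12 and 0.05, with an adjusted p of 0.449.

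Spindle and microtubule proteins held the highest ratio of all 34 genes, and 3 of 4 rose. STMN1, which encodes stathmin, a protein that binds tubulin and destabilises microtubules, gave 1.75, 2.23 and 1.79. Its mean was 1.88 ± 0.11 (moderated SE, n = 2), a 3.68-fold difference with an adjusted p of 0.0194, and it ranked 22nd of all named genes. PRC1, which bundles the antiparallel microtubules of the spindle midzone, gave 1.08, 1.30 and 1.11, with a mean of 1.14 ± 0.09 (n = 2) and an adjusted p of 0.0203. HMMR, a hyaluronan-binding protein that also acts at spindle poles, gave 0.90, 0.74 and 0.67, with a mean of 0.80 ± 0.10 (n = 2) and an adjusted p of 0.0341, which was 0.0706 with the Cy5 array of extraction 2 left out. NUSAP1, a microtubule-bundling protein of the spindle, had values of 0.05, −0.0026 and −0.04, with an adjusted p of 0.930. STMN1, like CDK1, was higher on the array with E47 in Cy3 than on both arrays with E47 in Cy5.

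At the centromere and kinetochore, 1 of 4 measured genes rose and all 4 were above 0 on every array as means over spots. The CENPA mean joins 2 clones whose means differ in sign, described with the clones below. CENPF, a large protein of the outer kinetochore, gave 0.75, 0.61 and 0.60, with a mean of 0.68 ± 0.09 (moderated SE, n = 2) and an adjusted p of 0.0399. It was the call nearest to the threshold, and its adjusted p became 0.0921 without that Cy5 array and 0.0517 when spots lacking a value on 1 array of that extraction were kept. CENPE, the kinetochore motor, gave 0.77, 0.35 and 0.57, and its mean of 0.62 did not pass, at an adjusted p of 0.0671. ZWINT, which links kinetochore proteins, gave 0.72, 0.09 and 0.47 from a single spot, a wide spread with an adjusted p of 0.117. CENPA, the histone H3 variant that marks centromeres, was at 0.20, 0.59 and 0.36, with an adjusted p of 0.142. Neither of the measured genes of condensin and the chromosome surface passed, and neither had an unadjusted p under 0.05. SMC2, a condensin ATPase, was at −0.02, −0.27 and −0.13, and MKI67, the proliferation antigen Ki-67 that coats mitotic chromosomes, at −0.10, 0.08 and 0.13. MKI67, often used to count cycling cells, had a mean of 0.0022 with an adjusted p of 0.989, measured by 1 clone printed as a pair of spots.

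Several clones stood behind 13 of the 34 genes, and how alike the clones were varied between genes. The 2 clones of CDK1 had means of 1.40 and 1.40, those of PRC1 1.19 and 1.09, and those of CCNA2 0.95 and 0.85. The BUB1B clones were at 1.46 and 0.98, and they lay furthest apart on the Cy3 array, at 1.79 and 0.53. Those of CKS1B were at 0.53 and 0.16, and those of BIRC5 at 0.31 and 0.10. Of AURKA 1 clone was printed at 5 positions, which gave means from 0.53 to 1.06. In 3 genes the clones differed in sign. One KIF20A clone gave 1.17, 1.62 and 1.16 and the other −0.37, −0.26 and −0.42. The values of each KIF20A clone were alike on all arrays, so the gene mean of 0.46 describes neither. Tested as a feature of its own, the higher clone passed, at 1.28 ± 0.10 (moderated SE, n = 2) and an adjusted p of 0.0196, and the lower one, at −0.36, did not, at 0.0887. The NUSAP1 clones were at 0.42 and −0.12. For CENPA 1 clone gave 0.81, 0.54 and 0.55, with a mean of 0.68 and an adjusted p of 0.0499, and the other −1.02, 0.69 and −0.02, so that its arrays did not share a sign. Which clone reads the dog transcript was not tested. With each clone as a feature, 14 of the 34 genes had a clone that rose, against 6.72% of all named genes, and no gene had a clone that fell. Of the 132 spots of these genes 8 lacked a value on an array and were left out. The 2 left-out BUB1B spots gave 1.25 and 1.24 on extraction 1 and 0.56 and 0.23 on the Cy5 array of extraction 2, while 1 left-out CDC25B spot had −3.87 on extraction 1 and no value elsewhere.

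**Figure D3:**
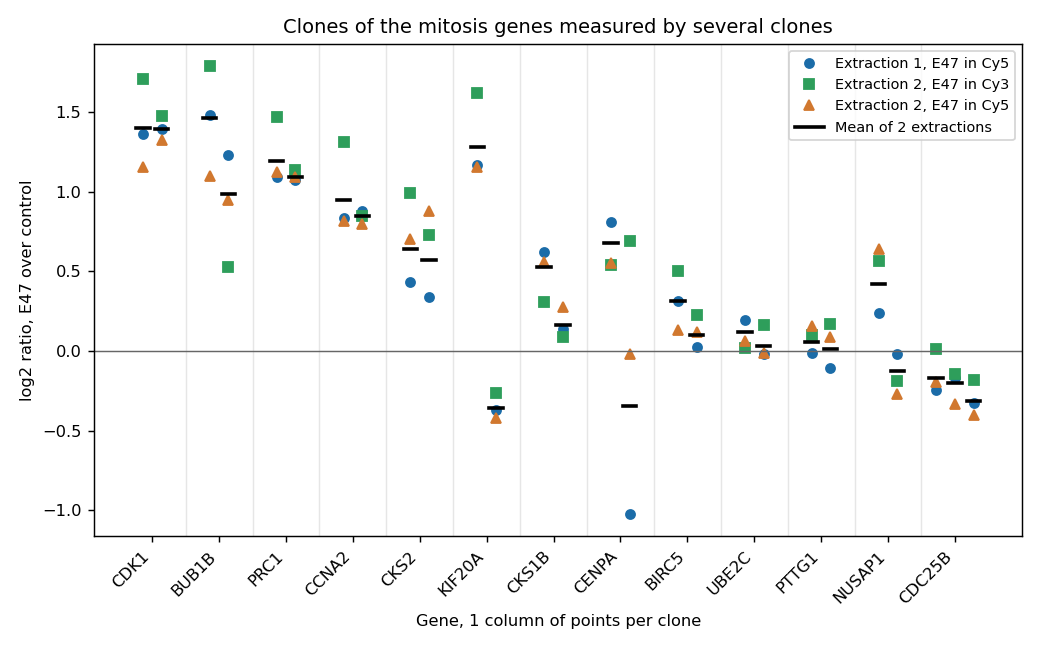
Log2 ratio of E47 over control (y axis) for each clone of the 13 mitosis genes measured by several clones (x axis), with 1 point per array and a black bar for the mean of the 2 extractions. Clones of CDK1 and PRC1 lie together, while the KIF20A clones lie apart at 1.28 and −0.36.

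The dye swap of extraction 2 read the same RNA with the dyes exchanged. Of the 34 genes, 28 were higher on the array with E47 in Cy3 than on that with E47 in Cy5, as were 60.3% of all named genes and 65.6% of the named genes that rose. All 12 mitosis genes that rose were among the 28. The median difference, Cy5 array minus Cy3 array, was −0.11 for the 34 genes and −0.06 for all named genes. Among single genes it ran from −0.49 for MAD2L1 to 0.38 for ZWINT. CCNB2, STMN1, KIF20A and AURKA differed by −0.42, −0.44, −0.31 and −0.31. The ratios of all named genes spread less on the Cy3 array, with an SD of 0.43, than on the Cy5 arrays, with 0.55 for extraction 1 and 0.48 for extraction 2. With a dye term fitted over the 3 arrays, 15 of the 34 genes rose against 7.70% of named genes, and the 12 calls were all kept. Unlike the main test, this fit took the 2 arrays of extraction 2 as separate values, although they read the same RNA. The part of a dye effect in extraction 1, which has no dye swap, was not tested.

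**Figure D4:**
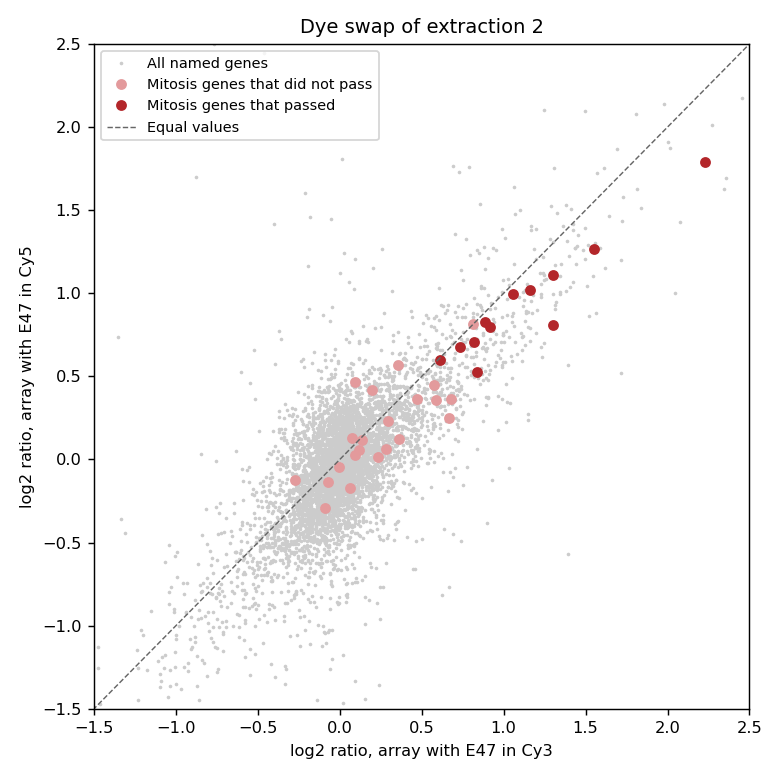
Log2 ratio of E47 over control on the 2 arrays of extraction 2, with E47 in Cy3 (x axis) or in Cy5 (y axis), for all named genes in grey and the mitosis genes in red; the dashed line marks equal values. Genes outside −1.5 to 2.5 are not drawn. All 12 mitosis genes that passed (dark red) lie below the line, as do 28 of the 34.

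The next genes belong to 7 further lists of the mitotic machinery and its regulators. Of 67 measured genes, 8 rose and 1 fell, or 11.9% higher against 5.34% of named genes, with a median of 0.12. Spindle, centrosome and cytokinesis genes held 6 of these, among 21 measured. ASPM, a spindle pole protein, was at 1.66 ± 0.08 (moderated SE, n = 2), ANLN, the cytokinetic ring protein anillin, at 1.56 ± 0.11, and RAN, the GTPase that directs spindle assembly, at 1.13 ± 0.09, with adjusted p-values from 0.0194 to 0.0202. RAD21, the cohesin subunit cleaved by separase, was at 1.31 ± 0.12 (n = 2) and was the gene that rose among 4 of cohesin. ASPM, ANLN, RAN and RAD21 all passed without the Cy5 array of extraction 2 as well, and the other 4 did not. Among regulators of mitotic entry and exit, CDK7, the kinase that activates CDK1, rose to 0.62, and PLK2, a Polo-like kinase linked to G1 and stress, fell to −0.84; both lost their calls without that array, at adjusted p-values of 0.0963 and 0.0717. None of 6 genes of the anaphase-promoting complex and its inhibitors passed in limma, 3 were higher at an unadjusted p under 0.05, and FBXO5, the inhibitor EMI1, was at 0.93 with an adjusted p of 0.0503. None of 9 further kinetochore and checkpoint genes passed, and 3 were higher and 3 lower at an unadjusted p under 0.05. CENPW had the largest size, 0.52, and MAD2L2 was at −0.51, with adjusted p-values of 0.0537 and 0.0538. The condensin subunit NCAPD3 was at 0.28, with an adjusted p of 0.178. None of 12 transcription factors of cell cycle genes passed, and 2 were higher and 1 lower at an unadjusted p under 0.05. Their median was 0.0037, with MYBL1 at 0.68 and an adjusted p of 0.0504. For the unadjusted counts of these lists, the background was 958 higher and 1005 lower of all 5508 named genes.

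The lists of S phase and replication, of G1 cyclins and CDKs and of CDK inhibitors gave both directions. Of 30 measured genes of S phase and replication 7 rose, against 5.34% of named genes, and none fell, with a median of 0.33. At an unadjusted p under 0.05, 18 were higher and 3 lower, against 958 higher and 1005 lower of all 5508 named genes. TYMS, lower at that level, was at −1.73, 0.07 and −1.52 with an adjusted p of 0.0849, so its arrays did not share a sign. The highest were RPA3, a single-strand DNA binding subunit, at 1.44, TOP2A at 1.38 and GMNN, the licensing inhibitor geminin, at 1.38. TOP2A encodes the topoisomerase that untangles sister chromatids, so its place in a replication list is not exclusive. RPA3, TOP2A and GMNN kept their calls without the Cy5 array of extraction 2, against 1.34% of named genes higher, and the other 4 did not. Of 6 G1 cyclins and CDKs, CCND2, a D-type cyclin, fell to −1.26 with an adjusted p of 0.0328, or 0.0918 without that array, and none rose. None of 5 CDK inhibitors passed, 2 were lower at an unadjusted p under 0.05, and the median was −0.18. The largest size was that of CDKN1C, the inhibitor p57, at −1.41, −0.83 and −0.75, with an adjusted p of 0.0557.

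**Figure D5:**
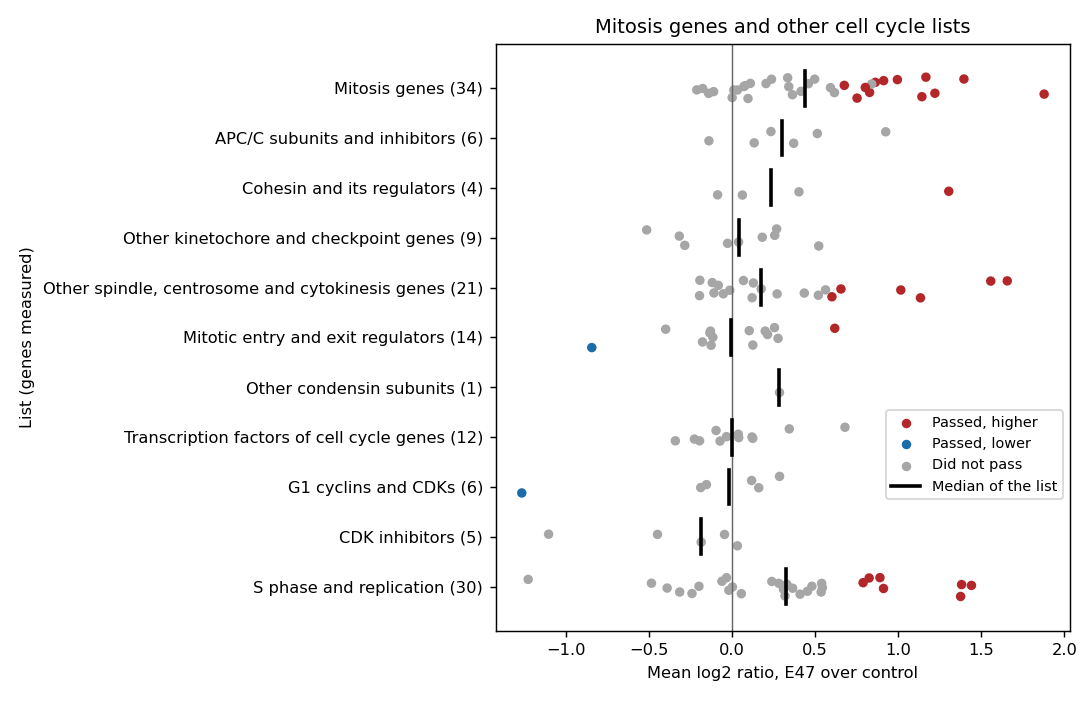
Mean log2 ratio of E47 over control (x axis) of the 34 mitosis genes and of the genes of 10 further cell cycle lists (y axis, with the number measured), 1 point per gene and a black bar for the median of the list; points are spread vertically only to separate them. Genes that passed the limma test and were higher are red, those that passed and were lower are blue. The mitosis genes have the highest median, 0.44, ahead of S phase and replication at 0.33. All lists were chosen with earlier results of these data known.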

How the data were processed

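The table holds 1 column of log2 ratios per array as deposited by the authors. How the background was corrected and the ratios normalised, and their log base and direction, was not stated in the sources used here. All columns correlated positively, so no sign was turned. Spots that lacked a value on any array were left out, and 23275 of 27648 remained. The platform annotation named the genes, and each gene is the mean of its spots on an array. Spots without a single symbol (8500) entered the fit one by one. All 44 symbols are in the dog gene table of RefSeq, used for names only. The dye swap was averaged, so 2 extractions and 1 residual degree of freedom remain. The fit covered 14008 features and tested ratios against 0, using limma 3.58.1 (lmFit, eBayes) under R 4.3.3 and Benjamini-Hochberg adjustment over all features. Each ratio holds its own control channel; whether the arrays shared 1 control RNA preparation was not stated in the sources used here. The SE is that of the moderated fit, with 2.71 prior degrees of freedom estimated over all features. The pooled spread thus weighs more in each SE than that of the gene itself. The SE leaves out the spread between spots. Extraction 1 has no dye swap, so part of any dye difference enters the spread between extractions. The code was tested on simulated data. Every member is named, and of each other list up to 3 genes that passed, by size, or else the largest. MAD2L2 and TYMS were named in addition, after the values were seen. The members and lists were chosen with earlier results of these data known. Figures were drawn with matplotlib 3.10.9.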

Additional observations from a re-analysis of the deposited data

How the results depend on the processing

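The median of the 34 mitosis genes stayed between 0.39 and 0.48 under 10 alternative settings, and between 0.39 and 0.46 when either extraction was left out. The number above 0 on every array used was 27 in each of these 10 and 28 to 29 with an extraction left out. No gene of the 34 fell under any tested setting. The number that rose was 12. It was 4 without the Cy5 array of extraction 2, 18 at an adjusted p under 0.10, and 0 at an adjusted p under 0.01, where the smallest adjusted p of any feature was 0.0194. In the other settings, all at 0.05, it ran from 11, with CENPF lost when spots lacking a value were kept, to 17, when named genes were tested alone. It was 16 with 3 arrays as separate values and 15 with a dye term. Both of these took the 2 arrays of extraction 2 as separate, although they read the same RNA. CKS1B, CKS2, CCNB2, PLK1, KIF20A, KIF23, CENPE and CENPA passed in at least 1 setting. KIF20A and CENPA each join clones whose means differ in sign, and CENPA passed as a gene only with the median over spots. The clone-level test was chosen after seeing the data. Leaving out an extraction gave values only, since no residual degrees of freedom remain. A promoter motif description had been planned and was not run, because promoter sequences were not used here. Signal over background is unknown, so dim spots were not filtered. Each array carries its own control in the ratio, so the test of ratios against 0 uses the pairing of E47 and control within an array. No further pairing was possible, since there is only 1 group.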
